A study of Mus musculus with 24 samples.

Results

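The response of diabetic macrophages to lipopolysaccharide and interferon gamma was described from the 12 ATAC-seq libraries of diabetic mice among the 24 libraries of the study. They were chosen by title, 6 from stimulated and 6 from unstimulated cells. ATAC-seq marks open chromatin, since the Tn5 transposase inserts adapters where DNA is accessible, and the deposited data are lists of peaks, places where such insertions pile up. The cells were macrophages grown from bone marrow of male C57Bl/6 mice whose diabetes was induced with streptozotocin (STZ), a drug toxic to insulin-producing beta cells, so both groups of diabetic libraries share the diabetes. Stimulated cells received 100 ng/mL LPS with 10 ng/mL IFNγ, and the other group received neither. The comparison groups were 6 stimulated and 6 unstimulated libraries of wild-type male C57Bl/6 control mice with no streptozotocin. The series text says that material of each of 6 diabetic mice was divided between both states, but no label ties a replicate number to a mouse, and the sources used here give no ages. The stimulation time is uncertain, because the protocol speaks of 6 h of culture for IL-1β samples, a stimulus named on no other label, and of baseline cells lysed at once. As a model they are limited by having been grown in culture, outside the diabetic animal, before the assay.

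Lipopolysaccharide, a component of the outer membrane of Gram-negative bacteria, is sensed by Toll-like receptor 4 and switches on NF-κB, AP-1 and, through type I interferon, further interferon signalling. Interferon gamma acts through JAK kinases and STAT transcription factors, raises IRF1 and primes macrophages for killing and for antigen presentation. Together they drive the classical, inflammatory state, in which many enhancers far from gene starts open and others close.

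Peaks of the 24 lists that overlapped were merged into regions, and a region was kept when at least 2 libraries had a peak there. Counts of libraries holding a peak were compared, 6 against 6, by a two-sided Fisher's exact test with Benjamini-Hochberg adjustment at 0.05. Regions passing with more stimulated libraries are called gained and those passing with fewer are called lost. In these data every region that passed had a peak in all 6 libraries of 1 state and in none of the other (Fisher's exact p = 0.00216, adjusted p = 0.0243). A region without a peak lay below the authors' calling threshold, which is not a measurement of closed chromatin. In bulk libraries, fewer cells with an open site and less access per cell cannot be told apart.

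The following sequences are the promoters of Cxcl9 and Oasl1. Of the response list genes whose start was in the reference, these 2 had a start window that overlapped a gained region. The window runs from 250 bases before to 50 after the start. Cxcl9 encodes a chemokine that attracts T cells and is a textbook target of interferon gamma, and Oasl1 encodes a 2′-5′-oligoadenylate synthetase-like protein. Both are written 5′ to 3′ on the strand of the gene, as in RefSeq on GRCm38.p6, and capitals mark motif matches. The Cxcl9 window is chr5:92328030-92328329 (minus strand), the Oasl1 window chr5:114922990-114923289 (plus strand).
Cxcl9: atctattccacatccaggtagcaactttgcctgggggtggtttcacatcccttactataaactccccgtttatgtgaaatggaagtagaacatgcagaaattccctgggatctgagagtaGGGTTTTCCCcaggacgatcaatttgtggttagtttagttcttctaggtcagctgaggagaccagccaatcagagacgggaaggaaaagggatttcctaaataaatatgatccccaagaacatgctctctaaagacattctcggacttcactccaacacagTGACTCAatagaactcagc
Oasl1: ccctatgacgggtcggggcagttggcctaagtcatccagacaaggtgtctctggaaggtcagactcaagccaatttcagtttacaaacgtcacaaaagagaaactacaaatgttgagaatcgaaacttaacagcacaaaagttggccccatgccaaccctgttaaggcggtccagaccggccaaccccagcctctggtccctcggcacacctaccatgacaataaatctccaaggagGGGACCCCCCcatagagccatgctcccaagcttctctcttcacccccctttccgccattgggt
The Cxcl9 window held an NF-κB core (GGGA, 4 bases of any kind, then CC, read on the strand opposite the gene) that began 130 bases before the start, and an AP-1 match (TGANTCA) 31 bases after it. The Oasl1 window held an NF-κB core that began 13 bases before the start. Neither held the interferon-stimulated response element core (GAAA, 2 bases of any kind, GAAA) or the STAT site TTCNNNGAA. Both strands were searched for all 4 motifs, which do not overlap each other here. Among 32851 promoter windows of 300 bases, 20.7% held the NF-κB core, 7.81% the AP-1 motif, 8.30% the STAT site and 3.44% the response element core, so a match of these short patterns is common and is given as a description only. Over all genes, 14 windows overlapped a gained region and 8 windows, of 7 genes, a lost one. The NF-κB core was in 3 of the gained (21.4%) and 5 of the lost windows (62.5%). The AP-1 motif was in 4 (28.6%) and 2 (25%). These small counts were not tested. The gained region at Cxcl9 (chr5:92328037-92328467) had a peak in 6 of 6 stimulated and 0 of 6 unstimulated diabetic libraries, and in 5 and 0 control libraries. That at Oasl1 (chr5:114922927-114923606) had a peak in 6 and 0 diabetic libraries, and in 6 and 3 control libraries.

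The diabetic lists were similar in size before and after stimulation. Unstimulated libraries held 49837 to 61861 peaks (median 56099) and stimulated ones 46503 to 58016 (median 54924.5). The means were 55521.7 ± 4925 and 53702.8 ± 4511 (SD, n = 6 each; exact permutation p = 0.502, adjusted over 4 library values p = 0.781). Covered length was 19.7 ± 2.20 Mb against 19.4 ± 1.95 Mb (exact permutation p = 0.781), and the median peak width was 298.3 ± 5.50 bp against 300.2 ± 8.28 bp (exact permutation p = 0.671). Peaks with a summit within 1 kb of a gene start made up 22.2% ± 1.34 and 22.99% ± 1.53 (exact permutation p = 0.344). All 4 pairs of groups overlapped. In control macrophages the peak number was 15.6% lower after stimulation (exact permutation p = 0.00649), against 3.28% lower in diabetic macrophages. The control share at gene starts went from 21.9% ± 0.872 to 25.3% ± 1.68 (SD, n = 6 each, exact permutation p = 0.00216). Relative to the unstimulated mean this was 15.5% higher, against 3.68% higher in diabetic macrophages. The difference between these responses had an exact permutation p of 0.0792 for peak number and 0.0419 for gene starts, and both had an adjusted p of 0.158, so neither passed. The sources used here give no read totals. The background level recovered from the deposited values, a measure of relative depth, was 0.769 to 0.919 tags in unstimulated and 0.707 to 1.007 tags in stimulated diabetic libraries.

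**Figure D1:**
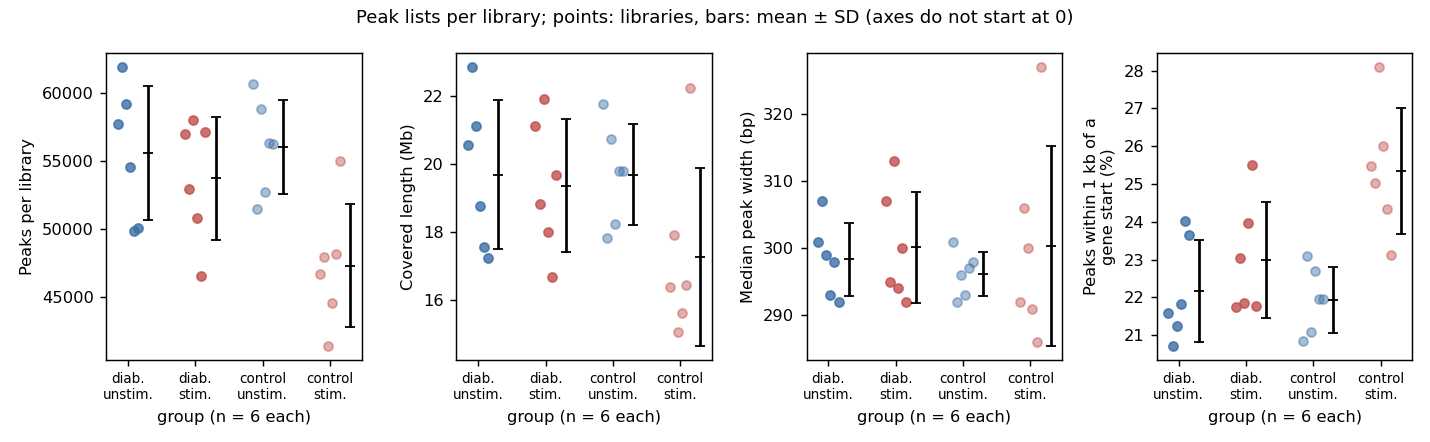
Peak number, covered length (Mb), median peak width (bp) and share of peaks within 1 kb of a gene start (%) in each library, by group. Points are libraries and bars are mean ± SD (n = 6 each); the diabetic groups overlap in all 4 panels, and the axes do not start at 0.

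The regions gained and lost in diabetic macrophages were few beside those held throughout. Of 80598 regions, 27280 had a peak in all 12 diabetic libraries, and 11708 had a number of detections that could give an unadjusted p under 0.05 and were tested. Among these, 641 were gained (5.47% of tested regions) and 403 were lost (3.44%), 1044 in all (8.92%), so gains made up 61.4% of calls. A further 1013 regions on the gained side and 1116 on the lost side stood 1 library short of complete separation (5 against 0 or 6 against 1, adjusted p = 0.0559). When every list was shortened to its 41385 strongest peaks by −log10 q, 641 regions separated completely towards gain and 383 towards loss. At that length regions 1 library short also passed, which gave 1580 gained (17.7% of 8913 tested) and 1304 lost (14.6%). Stimulated replicate 5 had the shortest diabetic list (46503 peaks) and shared least with its group, a median of 66.7% of regions per pair (Jaccard index). Without it 1008 regions were gained and 434 were lost. With peaks at a −log10 q of at least 5 only, 373 were gained and 380 lost, and gains made up 49.5% of calls.

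**Figure D2:**
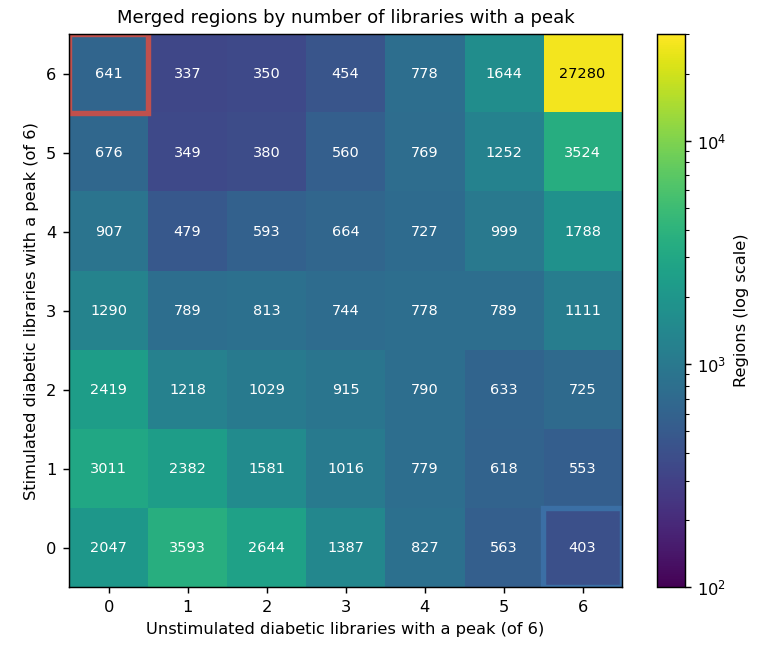
Number of merged regions for each combination of unstimulated (x axis) and stimulated (y axis) diabetic libraries with a peak, on a logarithmic colour scale. The boxed corners hold the 641 gained and 403 lost regions, and the upper right corner the 27280 regions with a peak in all 12 libraries.

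Gained and lost regions lay mostly away from gene starts. Of the 641 gained, 25 (3.90%) had their position within 1 kb of a gene start, as had 16 of the 403 lost (3.97%), against 7.19% of tested regions and 32.0% of regions found in all 12 libraries. The median distance to the nearest start was 23.9 kb for gained, 20.1 kb for lost and 19.6 kb for tested regions. The reference held no gene starts on chromosome 18 and lacked those of some other genes, among them Tlr4, Il15 and Usp18. Regions at such starts were not counted as at a start, and distances can be too long in every set. Gene bodies held 54.4% of gained and 55.8% of lost regions, beside 55.8% of those tested. Gained regions had a median width of 456 bp and lost ones of 379 bp. By the authors' own fold over background, a description within each list, the peaks of gained regions had a median of 6.26 and those of lost regions 5.67. Their median percentile in the list, where 100 is the strongest peak, was 45.6 and 34.6. The changed regions thus sat at middle to lower ranks, and 95% of gained regions were below percentile 70.4. The gained regions fell to 498 protein-coding genes within 50 kb and the lost ones to 325, with 24 genes on both sides. Regions go to the nearest gene body, which need not be the gene they act on, and UTRs, introns and exons were not told apart.

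The strongest gained region lay within Nfkb1, which encodes the p105 precursor and p50 subunit of NF-κB (chr3:135640137-135640654). None of the 6 unstimulated libraries had a peak there. In stimulated replicates 1 to 6 the peak stood at percentile 96.4, 94.3, 91.5, 92.8, 83.4 and 96.6 of its list, and the authors' fold was 9.44 to 14.7. Every stimulated library thus held a strong peak where no unstimulated library had any. Next came a region 47566 bp from Id2, whose protein blocks helix-loop-helix transcription factors (chr12:25143315-25144002). It was at percentile 79.6 to 92.8 in stimulated libraries, with a median fold of 10.9. A region within Ikzf5, an Ikaros-family zinc finger gene (chr7:131397266-131397946), was at percentile 57.1 to 90.1, and its lowest value was that of stimulated replicate 5.

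Receptor and signalling genes were among the other leading gains. A region 23772 bp from Fpr2, a formyl peptide receptor of phagocytes (chr17:17917413-17918036), was at percentile 63.8 to 84.3 in the 6 stimulated libraries. The region nearest to Grm5, a glutamate receptor gene, lay 31708 bp from it (chr7:88166491-88167051), and the nearest gene start was that of Ctsc, the cathepsin C gene. Phip, a bromodomain protein gene, had a gained region 41825 bp away (chr9:83022864-83024123). Both were strong peaks, with a median fold of 11.8 and 9.41. The actin-nucleating Arp2/3 subunit gene Actr3 (chr1:125398612-125399098) and the transcription elongation factor gene Ell2 (chr13:75754075-75754746) gained regions within their bodies, at a mean percentile of 80.1 and 76.4. These 2 were not called in control macrophages, where 3 and 2 unstimulated libraries also had a weak peak beside 6 of 6 stimulated ones. The ubiquitin-conjugating enzyme gene Ube2z, the focal adhesion gene Lpp, the tRNA proofreading gene Dtd1 and the kinase gene Cdk20 completed the 12, at mean percentiles of 75.4, 75.3, 75.2 and 75.3.

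The strongest lost region lay 14519 bp from Hint1, a nucleotide hydrolase gene (chr11:54884766-54885284). In unstimulated replicates 1 to 6 its peak was at percentile 65.9, 76.0, 81.5, 83.4, 76.5 and 52.7 of the list, and no stimulated library had a peak. The same holds for the other 11: each had a peak in all 6 unstimulated libraries and in none of the stimulated. Regions near the amino acid transporter gene Slc7a13 (chr4:19856093-19856620, 14143 bp away) and near Btbd8 (chr5:107521947-107522306, 9566 bp away) were at mean percentiles of 70.9 and 69.5. Within gene bodies, losses fell in Celf6, an RNA-binding protein gene (chr9:59598493-59598874), in Sdc4, which encodes a heparan sulfate proteoglycan of the cell surface (chr2:164441144-164441588), and in Hpgd, whose enzyme degrades prostaglandins (chr8:56313645-56314002). Their median folds were 10.7, 6.60 and 9.80. Pik3r1, the p85α regulatory subunit of phosphoinositide 3-kinase, lost a region within its body at percentile 58.4 to 76.4 (chr13:101760284-101760666). The remaining 5 were within Fnip2, Myo10 and Lyst, a regulator of lysosomal trafficking, 19442 bp from the general transcription factor gene Gtf2f2 and 2647 bp from 4930486L24Rik, at mean percentiles of 65.5, 63.3, 62.3, 65.0 and 62.9. The ranking required that all 24 also pass at equal length.

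**Figure D3:**
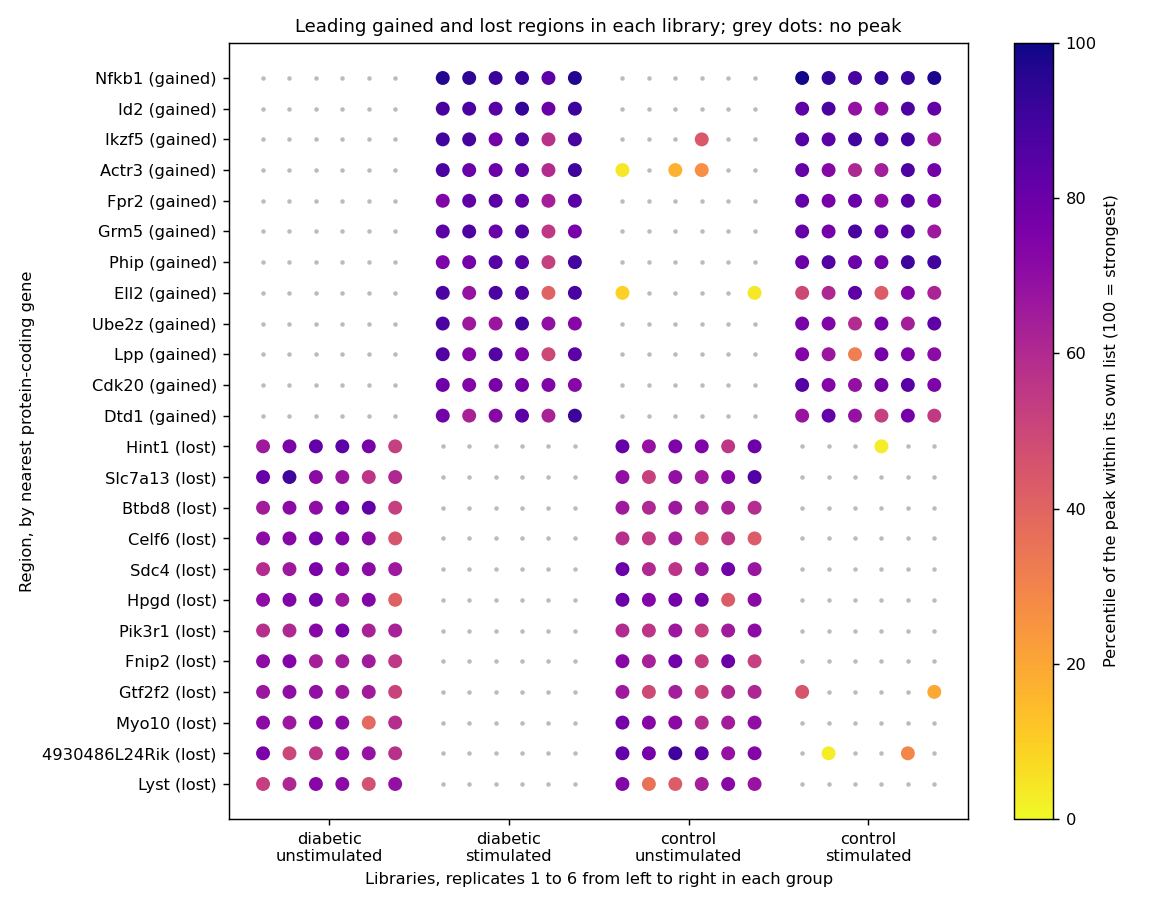
The 12 leading gained and 12 leading lost regions (rows, by nearest protein-coding gene) in each of the 24 libraries (columns, replicates 1 to 6 within each group); colour is the percentile of the peak within its own list and grey dots are libraries without a peak. In diabetic libraries all 24 regions separate completely, and in control libraries 6 of the 24 have a peak in 1 or more libraries of the other state.

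Some genes held several changed regions. Ncam2, Bicdl2, Jazf1 and Lpp each gained 3 and Mtap gained 2, among 38 genes with more than 1 gain. The 3 gains of Bicdl2 were of 4 regions tested at a gene of 24.02 kb, whereas the 3 of Lpp were of 12 tested over 599.2 kb, so gene length differs widely between them. Jazf1, a zinc finger gene studied for its link with type 2 diabetes, gained all 3 within its body. In control macrophages these 3 regions had a peak in 6, 5 and 6 stimulated libraries and in 1, 0 and 0 unstimulated ones. Akap13, an anchoring protein of protein kinase A, lost 3 of 9 tested regions, and 12 genes lost more than 1. Dnmt3a, a de novo DNA methyltransferase, lost both of its tested regions (chr12:3870880-3871314 and chr12:3892638-3893095), the second 1151 bp from the gene start. Mtmr12, Myo1f and Utp18 lost 2 each.

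Genes of sensing and of the signalling cascade were read against the shares over all tested regions, 5.47% gained and 3.44% lost (17.7% and 14.6% at equal length). The list of LPS sensing genes (receptors, adaptors and kinases such as Tlr4, Myd88 and Irak kinases) held 0 gains and 0 losses among 9 regions tested, and 3 gains and 0 losses among 15 at equal length. Interferon gamma signalling genes showed 1 gain and 0 losses among 15, and 2 and 1 among 9 at equal length. NF-κB genes had 3 gained and 1 lost of 14 (21.4% and 7.14%), and 3 and 3 of 13 at equal length. Beside the leading region, Nfkb1 lost another within its body (chr3:135602697-135603299), Rel gained a region within its body (chr11:23753191-23753587), and Nfkbiz, the gene of an inducible nuclear IκB protein, gained a region 21809 bp away that did not pass at equal length. Among IRF genes 1 of 7 tested regions was gained, 24969 bp from Irf8, a lineage factor of myeloid cells, at percentile 36.0 to 76.7. At equal length the IRF list had 2 gained and 4 lost of 13. AP-1 and other stimulus factors had 1 gained and 0 lost of 22, a region 38068 bp from Klf6 at percentile 44.4 to 84.1. At equal length they had 4 gained and 1 lost of 15. Over all tested regions the median difference between states was 1 library fewer after stimulation. The median difference was 2 libraries more for IFNγ signalling, 0 for NF-κB, 3 more for IRF and 1.5 more for AP-1 regions, and 2 fewer for LPS sensing.

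Inflammatory cytokine and chemokine genes showed 5 gains and 1 loss among 31 regions tested, where the shares over all tested regions were 5.47% and 3.44%, and 6 and 5 among 21 at equal length. The median difference was 2 libraries more. The Il12b gain, 17709 bp from the gene of the p40 subunit of interleukins 12 and 23 (chr11:44382099-44382610), was at percentile 58.2 to 85.4 in stimulated libraries. Il15, a cytokine that sustains NK and memory T cells, gained 2 regions within its body (chr8:82372858-82373293 and chr8:82376103-82376486), at mean percentiles of 56.5 and 39.6. The second had a peak in 5 stimulated and 2 unstimulated control libraries and was not called there. Il6 gained a region 19367 bp away (chr5:29993540-29993954) at percentile 2.31 to 47.2, so in some libraries it was barely above the calling threshold. The Cxcl9 promoter, shown above, was at percentile 10.9 to 65.0 and did not pass at equal length. The lost region lay 21007 bp from Csf1, the growth factor of macrophages (chr3:107781327-107781625), at percentile 43.5 to 74.2 in unstimulated libraries.

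With all peaks, interferon effector genes had the largest share of gains among the 23 lists, 7 gains and 1 loss among 26 regions tested (26.9% and 3.85%, against 5.47% and 3.44% overall). The median difference was 0.5 libraries more. At equal length they had 6 gains and 4 losses among 14 (17.7% and 14.6% overall), a share of gains no larger than the 3 of 7 at neutrophil genes. Gains lay at or near Gbp2 and Gbp5, guanylate-binding proteins that attack vacuolar pathogens, Ifi47, an immunity-related GTPase, Ifih1, the RNA sensor MDA5, Ifit2, which binds foreign RNA, Oasl1, and Usp18, a protease that removes ISG15 and damps interferon signalling. The Oasl1 promoter was at percentile 16.3 to 83.2, the region within Usp18 (chr6:121250021-121250532) at 34.9 to 79.1 and that within Ifit2 (chr19:34553393-34554049) at 47.0 to 71.4. The other 4 did not pass at equal length. Their peaks were weak, with a median fold of 4.19 at Ifih1, 4.83 at Ifi47, 4.89 at Gbp5 and 5.36 at Gbp2. Aim2, the gene of a cytosolic DNA sensor, went the other way: a region within it (chr1:173427381-173427698) had a peak in all unstimulated libraries, at percentile 31.4 to 81.0, and in no stimulated one.

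Classical activation genes showed 6 gains and 1 loss among 34 regions tested (17.6% and 2.94%, against 5.47% and 3.44% overall), and 12 and 7 among 31 at equal length (17.7% and 14.6% overall). Nos2, the inducible nitric oxide synthase, gained a region 31544 bp away (chr11:78889034-78889453) at percentile 17.2 to 49.0. Cd86, a costimulatory ligand, gained 1 within its body (chr16:36602726-36603108), and Ptges, which makes prostaglandin E2, gained 1 within its own (chr2:30913001-30913562) that was among the strongest of the list, at percentile 52.9 to 82.9. Il2ra and Il15ra, neighbouring receptor genes for interleukins 2 and 15, each gained a region within the body, at mean percentiles of 65.4 and 40.9. The Fpr2 region was described above. Cybb, the catalytic subunit of the phagocyte NADPH oxidase, lost a region 2132 bp from its start (chrX:9467006-9467399); in control macrophages 3 stimulated libraries kept a peak there. Antigen presentation genes showed 1 gain and 0 losses among 7, a region within Ciita, the master activator of MHC class II genes (chr16:10486855-10487217). It was weak, at percentile 3.74 to 62.5, and did not pass at equal length. At that length the antigen presentation list had 1 gained and 1 lost of 12.

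Negative feedback genes changed both ways, with 5 gains and 4 losses among 36 regions tested (13.9% and 11.1%, against 5.47% and 3.44% overall), and 6 and 7 among 28 at equal length (17.7% and 14.6% overall). Gains lay near Cish and Socs1, inhibitors of cytokine receptor signalling, and within Tnip1, a partner of the NF-κB inhibitor A20, and Sbno2, a corepressor induced by interleukin 10. The Tnip1 region (chr11:54954007-54954439) was at percentile 51.0 to 85.0 and those at Cish and Sbno2 had mean percentiles of 38.4 and 42.2. The Socs1 region did not pass at equal length. Irak3, the gene of a kinase-like inhibitor of Toll-like receptor signalling, gained a region within its body (chr10:120191193-120191551) at percentile 57.5 to 82.6 and lost 2, of which 1 (chr10:120193296-120193592) lay close to the gain. Tnfaip3, which encodes A20, lost a region within its body (chr10:19008548-19008922) and Il10ra, the interleukin 10 receptor, lost 1 lying 5500 bp away. None of these 4 losses passed at equal length.

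Genes of alternative activation, lipid handling and metabolism were read against the same shares, 5.47% gained and 3.44% lost, and 17.7% and 14.6% at equal length. Alternative activation had 1 gained and 0 lost of 16, within the coactivator gene Ppargc1b (chr18:61384638-61385553), which did not pass at equal length. Lipid handling had 0 gained and 2 lost of 35. The lost regions lay within Cd36, the scavenger receptor for fatty acids and oxidised lipoprotein (chr5:17849609-17849933, percentile 32.6 to 59.3 in unstimulated libraries), and within Soat1, which esterifies cholesterol (chr1:156467715-156468158), and only the first passed at equal length. At that length the lipid list had 0 gained and 8 lost of 26, and alternative activation 2 and 3 of 16. Insulin and PI3K signalling had 3 gained and 2 lost of 57 (5.26% and 3.51%), and 8 and 11 of 37 at equal length. Gains included regions within the kinase gene Pik3cd and within Rictor, the defining subunit of mTORC2, and losses within Pik3r1 and Rptor, the defining subunit of mTORC1. The Pik3cd region (chr4:149689893-149690417) was the strongest gain of the list, with a median fold of 10.8. Glucose and glycolysis genes had 0 gained and 0 lost of 20, and 2 and 3 of 17 at equal length.

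The list of chromatin regulators and trained immunity genes showed 3 gains and 3 losses among 42 regions tested (7.14% each, against 5.47% and 3.44% overall), and 5 and 7 among 32 at equal length (17.7% and 14.6% overall). Gains lay within Hdac9, a histone deacetylase, within Nod2, a sensor of bacterial muramyl dipeptide (chr8:88650051-88650690, percentile 59.6 to 71.1), and 26566 bp from Tet2, a dioxygenase that removes DNA methylation (chr3:133436809-133437413, percentile 61.9 to 88.0). Losses were the 2 at Dnmt3a and 1 within Dot1l, a histone H3 lysine 79 methyltransferase, which did not pass at equal length. The Tet2 region and the first Dnmt3a region thus changed in opposite directions, at a mean percentile of 74.6 and 37.6. This holds for the distal Tet2 region only. Peaks in and within 5 kb of Tet2 became fewer, from 7 to 9 per library to 4 to 6, with overlapping groups at equal length. In control macrophages the Tet2 region had a peak in 6 stimulated and 0 unstimulated libraries, and the Dnmt3a regions in 2 and 6 and in 0 and 5.

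Nearly all macrophage identity genes had peaks: 25 of 25 had a peak within the gene or 5 kb of it in each unstimulated library, and 24 to 25 in each stimulated library. Ccr2 had none in stimulated replicates 1 and 5, and Gpnmb none in replicates 4 and 6. Of 22 regions tested, 1 was gained (Mitf) and 2 were lost (Adgre1, Gpnmb). At equal length the identity list had 1 gained and 4 lost of 17. The Mitf region (chr6:97961936-97962347) was gained within the gene of a transcription factor of lysosomal genes. That within Adgre1, which encodes the macrophage marker F4/80, and that 569 bp from Gpnmb, a lysosomal glycoprotein gene, were lost with all peaks only, not at equal length. Markers of 7 other cell types (neutrophils, T and NK, B, erythroid and megakaryocytic, stromal and endothelial, dendritic, mast and basophil cells) held 0 gains and 0 losses among 48 regions tested, against 5.47% and 3.44% overall. At equal length they had 5 gained and 2 lost of 36 (17.7% and 14.6% overall), of which 3 gains among 7 tested regions were at neutrophil genes, and the part of such cells in the results was not tested. Of 93 markers matched, 21 had no peak in any diabetic library. Among those without a peak were Ly6g and Ngp of neutrophils, Cd3e, Cd8a and Ncr1 of T and NK cells, Gata1 and Hba-a1 of the erythroid lineage, Col3a1 and Dcn of stromal cells, Siglech of dendritic cells, and Mcpt8 and Fcer1a of mast cells and basophils. Other markers of the same lists did have peaks, among them Mpo and S100a8 of neutrophils, Cd3d and Cd3g of T cells and Klf1 and Tal1 of the erythroid list in every diabetic library. All 11 matched B cell markers had a peak in at least 1 library. Markers of these other cells had 19 to 27 peaks for neutrophil genes in stimulated and 20 to 31 in unstimulated libraries, and 16 to 23 and 18 to 29 for T and NK genes, with overlapping groups.

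**Figure D4:**
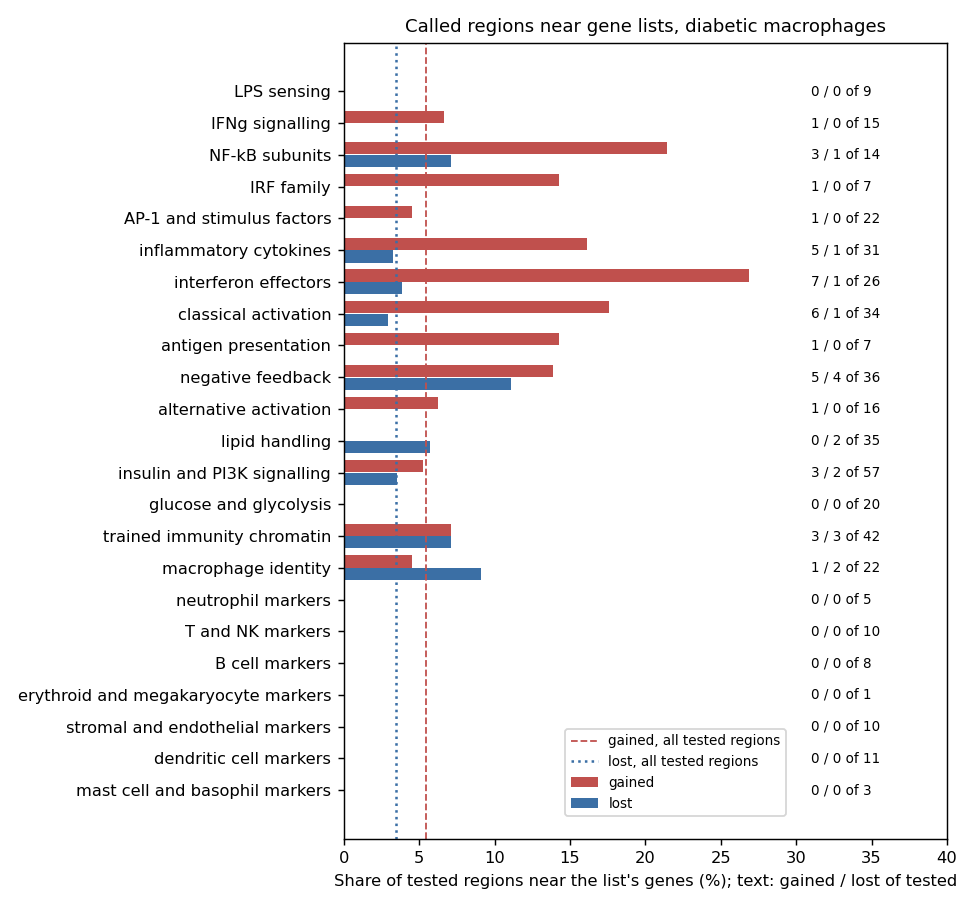
Share of tested regions near each gene list that were gained or lost in diabetic macrophages (%), with the counts at the right; vertical lines are the shares over all tested regions, 5.47% gained and 3.44% lost. With all peaks, interferon effectors have the largest share gained (26.9%), and the lists of other cell types have none.

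Counting all peaks in and within 5 kb of each gene, a measure chosen after the data had been seen and given without a test, set a few genes apart. Only inflammatory cytokines and interferon effectors, 2 of 23 lists (8.7%), had per 1000 peaks of the library more in every stimulated than in any unstimulated library. Cytokine genes had 1.04 to 1.14 peaks per 1000 (median 1.11) unstimulated and 1.18 to 1.45 (median 1.34) stimulated, and interferon effectors 1.45 to 1.66 (median 1.61) and 1.77 to 2.21 (median 1.95). Over 16455 protein-coding genes with a peak, 62 (0.377%) had more peaks in every stimulated library and 71 (0.431%) fewer; at equal length these were 100 (0.642%) and 86 (0.552%) of 15588. Those with more included Cxcl10, with 2 peaks in each unstimulated library and 4, 4, 5, 3, 3 and 4 in stimulated replicates 1 to 6, and Cxcl9, with 1 in each unstimulated library and 4, 2, 4, 4, 2 and 3 after stimulation. Both encode chemokines that bind the receptor CXCR3. Ifit2 went from 2 to 3 peaks to 4 to 7, Trim21, an antibody receptor of the cytosol and ubiquitin ligase, from 1 to 2, and Tab2, an adaptor of the kinase TAK1 in Toll-like receptor signalling, from 3 to 4 peaks to 5 to 7. Fewer peaks were found at Ccr2, the monocyte chemokine receptor gene, with 2 in each unstimulated and 0, 1, 1, 1, 0 and 1 in the stimulated libraries. Igf1 went from 4 to 6 peaks to 1 to 3, the mannose receptor gene Mrc1 from 8 to 11 to 5 to 7, Rptor from 20 to 25 to 10 to 18, Soat1 from 8 to 9 to 5 to 7 and Tet2 from 7 to 9 to 4 to 6. With lists of equal length, the groups still did not overlap at Cxcl10, Trim21 and Rptor. In control macrophages Cxcl10 (2 in each unstimulated library, 3 to 7 stimulated) and Ifit2 (2 to 4 and 5 to 7) had groups that did not overlap, and the other 9 of these 11 list genes overlapped.

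Where a peak was present throughout, its rank in the list still changed at some regions. Peaks were ranked in lists of equal length, and 21747 regions had a peak in all 12 diabetic lists. This measure was also chosen after the data had been seen and is a description without a test. In 522 regions (2.4%) every stimulated library ranked higher than every unstimulated one, and in 714 (3.28%) lower. Regions that ranked higher lay within 1 kb of a gene start in 18.6% of cases and those that ranked lower in 11.6%, against 36.2% of all 21747. Most shifts in rank were therefore also away from gene starts.

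The widest upward gap was within Clic5, a chloride intracellular channel gene (chr17:44192900-44193708), at percentile 1.45 to 26.7 (median 18.1) in unstimulated and 73.5 to 84.8 (median 79.2) in stimulated libraries. Nrp2, a semaphorin and VEGF coreceptor, went from 4.99 to 22.87 (median 17.3) to 67.5 to 83.7 (median 73.3) at a region 13969 bp away. Rapgef5, an activator of the small GTPase Rap1, went from a median of 16.9 to 93.6, and Rab27a, which directs secretory granules, from 11.2 to 81.2. These regions were picked for a wide gap between the groups, so that their groups lie apart follows from the choice. A second distal region of Il12b, 9811 bp from the gene (chr11:44389849-44390655), went from 29.5 to 58.8 (median 50.2) to 88.4 to 96.5 (median 95.05). Dtx3l, the partner of the interferon-induced PARP9, went from a median of 22.02 to 74.6 at a region 7403 bp away.

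Downward, the widest gap lay 3717 bp from Nampt, the rate-limiting enzyme of NAD salvage (chr12:32856612-32857561), at 82.1 to 91.3 (median 85.2) in unstimulated and 13.3 to 44.4 (median 23.96) in stimulated libraries. A region 23689 bp from the chemokine gene Ccl6 went from a median of 87.6 to 25.0 and 1 lying 11130 bp from Cx3cr1, the fractalkine receptor, from 85.6 to 36.2. Hpgds, which makes prostaglandin D2, went from 81.8 to 18.3 at a region 20214 bp away, and Aim2 from 79.3 to 41.4 at a second region within its body. At Aim2 and Il12b the rank of a shared region thus moved the same way as their called region.

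**Figure D5:**
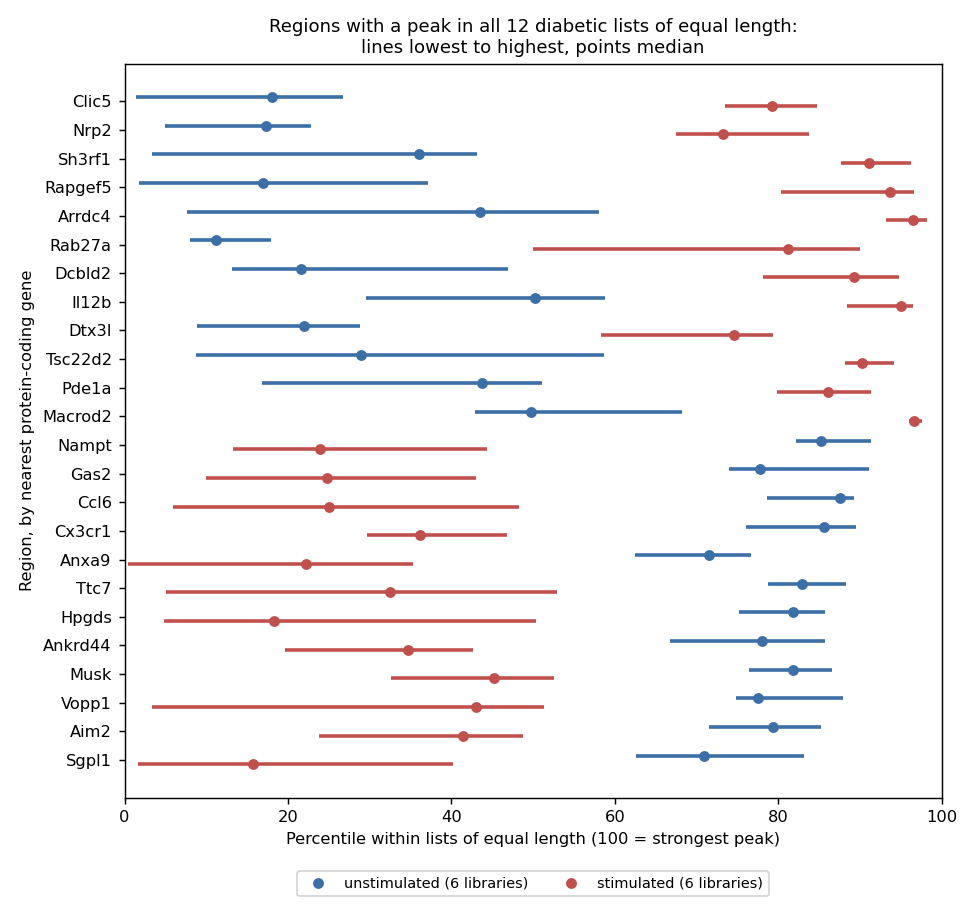
Percentile of peaks within lists of equal length (x axis, 100 = strongest) at the 12 regions with the widest upward and 12 with the widest downward gap between states, among regions with a peak in all 12 diabetic lists. Lines run from the lowest to the highest of 6 libraries and points are medians; Clic5 goes from 18.1 to 79.2 and Nampt from 85.2 to 23.96.

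At those starts of list genes that the reference held, 7 shared regions ranked higher, and the genes belong to several lists. Over all genes, 97 of 7866 shared regions within 1 kb of a start ranked higher and 83 lower. The shared regions at list gene starts were not counted, so the 7 have no share to set beside these. The Socs3 start, of a feedback inhibitor of interleukin 6 signalling, went from 30.8 to 62.8 (median 45.6) to 76.2 to 85.6 (median 83.1), and that of Cish from a median of 69.5 to 90.5. The Isg20 start, of an interferon-induced exonuclease, went from 54.6 to 84.2, that of Il6 from 54.9 to 77.9, that of Cd274, which encodes PD-L1, from 46.4 to 70.6, that of Tapbp, a chaperone of MHC class I loading, from 49.5 to 66.4 and that of Il4ra from 53.8 to 78.4. In each the ranges of 6 libraries did not overlap, as the choice required. Higher ranks were also found 6197 bp from Ifnb1, the interferon beta gene (46.4 to 80.2), 32344 bp from Csf2 (51.2 to 79.9), within Il15 (47.0 to 89.7) and within Parp14 (27.3 to 85.9). The same was seen 263 bp from Cd40 (54.9 to 79.9) and 219 bp from Zbp1 (44.4 to 79.7), whose starts the reference lacked. By list, 6 of 45 shared regions of cytokine genes ranked higher and 1 lower. Classical activation genes, among them Cd274 and Cd40, had 2 higher and 4 lower of 37. The counts were 3 and 3 of 36 for interferon effectors, 4 and 2 of 70 for negative feedback and 2 and 4 of 72 for AP-1 and stimulus factors. They were 0 and 2 of 67 for lipid handling, and 0 and 4 of 58 for macrophage identity. Over all shared regions the shares were 2.4% and 3.28%.

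Lower ranks were found at other regions of list genes. The 4 of classical activation lay near Acod1 (91.7 to 80.7), Fpr1 (81.7 to 64.9) and Slamf7 (75.6 to 50.5) and within Cd86 (96.9 to 88.4). Those near Cxcl1 (89.2 to 71.1) and Gbp5 (73.3 to 53.2) and within Parp9 (79.8 to 51.9) were lower too. Regions within Tlr4 (77.6 to 48.6), 10652 bp from it (70.3 to 41.6) and 21487 bp from Tlr2 (95.2 to 90.4) ranked lower, as did that within Jak1 (82.2 to 63.8), a kinase of interferon receptors. Among identity genes, Itgam went from 67.0 to 39.8, Ctsd from 70.0 to 24.7 and Ctsb from 75.4 to 59.6, the latter being lysosomal cathepsins. Regions near Fos (75.8 to 48.2), Fosb (81.7 to 31.7), Cebpa (88.9 to 45.7) and Klf6 (81.5 to 45.4) also ranked lower, whereas those near Bhlhe40 (77.4 to 97.8) and Ets2 (43.1 to 68.4) of the same list ranked higher. That of Klf6 lay 1245 bp from the gene, apart from its distal gained region. The start of Hk3, the hexokinase of myeloid cells, went from 76.5 to 49.7 and the start of Pf4, a platelet chemokine gene counted here as a megakaryocyte marker, from 61.9 to 29.6. Over the markers of the 7 other cell types, 3 of 64 shared regions ranked higher and 2 lower. The higher ones lay near the neutrophil marker Csf3r (15.1 to 80.8) and within the dendritic cell markers Zbtb46 (24.3 to 85.1) and Tcf4 (78.2 to 93.1), and the lower ones near Pf4 and Pdgfrb. Their part in the other shifts was not tested.

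The response was then set beside that of control macrophages at the same regions. Of the 641 regions gained in diabetic cells, 387 (60.4%) were also called gained in control cells, which is 38.02% of the 1018 gained there (8.41% of 12111 tested). Of the 403 lost, 256 (63.5%) were also called lost, 7.69% of the 3331 lost in control cells (27.5%). None was called in the opposite direction. In 633 of the 641 (98.8%) and 399 of the 403 (99.0%), the control libraries differed in the same direction, called or not. In control cells, regions 1 library short of separation passed as well, so the numbers called in the 2 phenotypes do not rest on the same counts; complete separations were 441 gained and 1078 lost there. Of the diabetic calls, 233 gained and 141 lost regions separated completely in control cells too. At equal length control cells had 1471 gained and 1775 lost regions, and the lost share of their calls was 54.7% in place of 76.6%. Of the 522 shared regions that ranked higher, 159 (30.5%) also ranked higher without overlap in control libraries and 0 lower. Of the 714 that ranked lower, 228 (31.9%) ranked lower there and 0 higher. Only 456 of the 522 and 538 of the 714 had a peak in every control list and could be ranked in this way. The share of all shared regions that separated in control libraries is not given here.

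A test of the difference between the responses found no region. Zelen's exact test for equality of odds ratios was applied to 9353 regions, of which 0 passed with Benjamini-Hochberg adjustment (0%; smallest adjusted p = 1) and 229 (2.45%) had an unadjusted p under 0.05. With lists of equal length 0 of 6947 passed and 147 had an unadjusted p under 0.05. Only 4 of the 641 gained and 2 of the 403 lost regions could be tested this way, since the detections of the others could not give an unadjusted p under 0.05. The region least like its control counterpart lay 24809 bp from Gnaq, which encodes a G protein alpha subunit (chr19:16107682-16108068). It had a peak in 6 stimulated and 0 unstimulated diabetic libraries but in 3 and 4 control libraries (Zelen's exact test p = 0.00889, adjusted p = 1). Hapln1, a link protein of the extracellular matrix, had a lost region 1135 bp away (chr13:89539172-89539617) with 0 and 6 diabetic but 2 and 1 control libraries (exact p = 0.0115). Gains near Brms1l, near Spock1 and within Vgll4 and a loss near Prodh were equally frequent in both control states, with 2 and 2, 4 and 4, 3 and 3 and 2 and 2 libraries. None of these 6 passed the adjustment, so no region was shown to respond differently in diabetic cells. Equal responses were not shown either. With 6 libraries per group and 9353 regions tested, a lone region could not pass even if the phenotypes separated completely in opposite directions.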

How the data were processed

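ATAC-seq peak lists of 24 libraries (4 groups of 6) were used, of which the 12 diabetic libraries form the comparison. The authors deposited 1 list per library, called separately. Per the submitters' processing notes the build was mm10 and the tools were MACS2 2.1.1, Bowtie2 2.2.6, edgeR, DiffBind 2.4.8, Trim Galore and FastQC 0.11.3. The sources used here do not give their roles or settings, or any shift for the Tn5 offset. Per the labels' protocols, 50000 cells were used per library, fragments over 1200 bp were excluded and reads were single and 50 bp long. The deposited columns give, for a peak, its summit offset, a score, a fold (a ratio over local background), a −log10 p and a −log10 q (lowest 1.302). The deposited score was not used in tests. Read totals are not known. For 1 peak in 10, the deposited fold and −log10 p were solved for a whole tag count and its background, to within 0.003. This had a solution for 100% of them, and the most frequent background served as relative depth.

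From these lists, regions were merged (overlap of at least 1 bp, at least 2 libraries) and tested as described in the report, with Benjamini-Hochberg adjustment over regions able to reach an unadjusted p of 0.05. Library values were compared by exact permutation over all 924 label orders (smallest p 0.00216). P-values measure the spread between these libraries. The response of the phenotypes was compared with Zelen's exact test and by permuting labels within each state. Python 3.11.15, numpy 2.4.6, pandas 2.3.3 and scipy 1.17.1 were used, and the region test was tested on simulated data. Genes and promoters came from RefSeq tables of GRCm38.p6, in which gene starts were missing for chromosome 18 and for some other genes. A region went to the nearest protein-coding gene body within 50 kb, and 463 of 467 genes of the 23 lists matched.

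The members, gene lists and rules were chosen with earlier results of these data known. Named regions were those separating completely with all peaks and at equal length, ranked by mean percentile of −log10 q (12 gained, 12 lost, 1 per gene), the 5 genes with most gained and most lost regions, and up to 5 genes with a called region per list; further genes called in a list are named, except some genes that are not reported here. Genes of the 2 measures chosen after the data had been seen were named from their results. Replicate numbers were checked for pairing: after removal of group means, libraries with the same number correlated at −0.00900 to 0.0159 across regions, so the fits are unpaired. Alternatives were lists of equal length, −log10 q of at least 2 or 5, regions chained from summits within 150 bp, diabetic lists merged alone, adjustment over all regions, the replicate block and leaving out each library.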

Additional observations from a re-analysis of the deposited data

How the results depend on the processing

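The 641 gained and 403 lost regions became 1580 and 1304 with lists of equal length, where regions 1 library short of separation also pass, and 373 gained (with 380 lost) with a −log10 q of at least 5. With adjustment over all 80598 regions, Fisher's exact test called 0 gained and 0 lost. Leaving out each library in turn gave 666 to 1008 gained, the highest without stimulated replicate 5, and 434 to 587 lost. Complete separation passed each time and persists when a library is removed, so these counts could only rise. They could not show that a call rests on 1 library. Other settings (a −log10 q of at least 2, summits chained, diabetic lists merged alone) gave 641 to 654 gained and 405 to 418 lost. No library value passed under any setting, and differences near 0 changed sign: covered length was 0.0653 Mb higher after stimulation and median width differed by -1 bp with lists of equal length, and leaving out each library gave -0.826 to 0.317 Mb and -0.733 to 3.57 bp, with peak number at -2955.77 to -378.867 and gene starts at 0.311 to 1.18 percentage points. The difference in width response between phenotypes went from -2.33 to 21.5 bp. Across the gene lists, equal length moved 29 of the counts by more than 1.5 times and left 17 within it; assignment within 5 kb moved 4 and left 42.

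The replicate numbers were not shown to pair the libraries: for only 1 of the 6 numbers was the best correlation that of the same number. With the replicate block, 641 regions were gained and 403 lost of 1312 tested (exact McNemar test). With 6 pairs only complete separation can pass this test (smallest p 0.03125, exact McNemar test), whichever libraries are paired. The same counts therefore say nothing about pairing. The 4 library values had exact sign-flip permutation p of 0.406, 0.719, 0.5625 and 0.219.

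Depth limits these results: a peak near the calling threshold can be present or absent by chance of sampling, read totals are unknown, and after adjustment only complete separation passed in the diabetic comparison with all peaks. Peak presence does not measure graded change.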
